A study of Homo sapiens with 7 samples.

Results

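The zinc finger clusters of chromosome 19 were examined as 7 spans that together make up 14 Mb, or 25% of the analysed chromosome. In hg19 they run from 9.2 to 9.9 Mb (cluster 1), 11.6 to 12.6 Mb (cluster 2), 19.7 to 24.5 Mb (cluster 3), 36.6 to 38.3 Mb (cluster 4), 44.3 to 45 Mb (cluster 5), 51.8 to 54 Mb (cluster 6) and 56.2 to 59.1 Mb (cluster 7). A peak belonged to a cluster when its midpoint lay in that span, so membership used position alone. By this rule the clusters held 2176 of the 8789 chromosome 19 peaks in 6 lists, out of 285703 peaks on chromosomes 1 to 22 and X. The lists come from chromatin immunoprecipitation with sequencing in T-47D, an established luminal, estrogen receptor-positive breast cancer cell line, grown in DMEM with FBS and with no treatment named. Each list is 1 library made with an antibody against H2A.Z, H3K27ac, H3K27me3, H3K36me3, H3K4me2 or H3K9me3. With 1 library per mark there is no replicate error and no test was made. All intervals are 95%, cover counting error only with peaks taken as independent, and are too narrow where peaks cluster. Copy number, which is altered in this aneuploid line, was not taken into account.

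Zinc finger genes with a KRAB domain form the largest family of human transcription factors, and many arose by tandem duplication, which left them side by side in clusters. Their proteins bind transposable elements and recruit TRIM28, a scaffold that brings in the histone methyltransferase SETDB1, which writes H3K9me3. In many cell types the zinc finger genes themselves are known to carry H3K9me3 toward their 3′ ends while their transcribed bodies carry H3K36me3, a combination that is rare elsewhere. Active promoters and enhancers carry H3K4me2 and H3K27ac on nucleosomes that often contain the variant histone H2A.Z, and Polycomb-silenced chromatin carries H3K27me3. In RefSeq (GRCh38.p14, used for names alone), 265 of the 562 protein-coding genes named ZNF, ZFP, ZSCAN, ZIM or ZIK, or 47.2%, are on chromosome 19. Gene positions in hg19 were not analysed here, so the gene content of the spans was not checked. The lists labelled H2A.Z and H3K9me3 ran opposite to this background with respect to active marks. In the clusters, 0 of 284 peaks labelled H2A.Z touched H3K4me2, which allows a share of up to 1.06%. That limit is 3 counts of the total, as for every share of 0 given a limit here. It was likewise 0 of 156 in the rest of chromosome 19 and 0.307% on the other chromosomes, so this was not particular to the clusters. Of the peaks labelled H3K9me3, 60.3% touched H3K27ac in the clusters, 53.1% in the rest and 29.9% on the other chromosomes. Both lists are therefore named under their labels, and whether the 2 files were exchanged before deposit was not tested.

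The first comparison asked how densely each list occupies the clusters. Among the 6 lists, the list labelled H2A.Z differed most from the rest of chromosome 19. It had 284 peaks in the clusters, or 20.3 per Mb (exact Poisson interval 18 to 22.8), and 156 in the rest, or 3.72 per Mb (3.16 to 4.35). The ratio was 5.46 (exact conditional binomial interval 4.47 to 6.68), and all 7 clusters were above the rest, from 12.3 to 37.1 per Mb. The clusters, 25% of the sequence, thus held 64.5% of this list's chromosome 19 peaks. Against the other chromosomes the clusters did not stand out, because those carried 19 peaks per Mb of this list, and the ratio was then 1.07 (0.945 to 1.20). The other 22 chromosomes ranged from 1.71 per Mb on chromosome 13 to 46.7 on chromosome 20, with a median of 18.7. It was the remainder of chromosome 19 that was sparse in this list.

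H3K36me3, the mark of transcribed gene bodies, was also denser in the clusters. Its 855 peaks there gave 61.1 per Mb (57.0 to 65.3) against 44.6 (42.6 to 46.7) in the rest of the chromosome, a ratio of 1.37 (1.26 to 1.49). It covered 13.0% of the bases of the clusters and 10.4% of the rest, a ratio of 1.25 that was 1.09 without cluster 6, with an interval (0.994 to 1.18) that includes equal coverage. That interval was scaled from the one on peak counts, so it leaves out the spread of widths and is too narrow for coverage. Clusters 2, 4, 5, 6 and 7 were above the rest in density and clusters 1 and 3 below.

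The active marks went the other way within the chromosome. H3K27ac had 294 peaks in the clusters, 21 per Mb (18.7 to 23.5), against 38.1 (36.3 to 40.02) in the rest, a ratio of 0.551 (0.485 to 0.624), and all 7 clusters lay below the rest. H3K4me2 had 390 peaks, 27.9 per Mb (25.2 to 30.8) against 45.9 (43.8 to 47.9), a ratio of 0.608 (0.543 to 0.678), with 6 clusters below. Chromosome 19 as a whole is dense in both lists, so this direction depends on the comparison. The clusters held more H3K27ac than the other chromosomes (1.93-fold) and more H3K4me2 (1.22-fold).

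For the list labelled H3K9me3 and for H3K27me3 the density of the clusters as a whole was close to that of the rest, with intervals of the ratio that include 1. The list labelled H3K9me3 had 121 peaks in the clusters, 8.64 per Mb (7.17 to 10.3), against 7.22 (6.43 to 8.08), a ratio of 1.20 (0.961 to 1.48). That did not hold under every choice. The ratio was 1.31 (1.06 to 1.61) with cluster edges extended by 0.1 Mb and 1.57 (1.08 to 2.25) among peaks wider than the commonest width. Without cluster 3, the sparsest in this list, it was 1.58 (1.25 to 1.98). The interval included 1 under the other choices. Among these were edges shortened by 0.1 Mb (1.16, 0.924 to 1.45), leaving out cluster 4 (1.05, 0.821 to 1.33) and leaving out cluster 5 (1.07, 0.849 to 1.35). By coverage, 0.574% of the clusters and 0.430% of the rest, the ratio was 1.34. H3K27me3 had 232 peaks, 16.6 per Mb (14.5 to 18.8), against 18.1 (16.8 to 19.4), a ratio of 0.915 (0.786 to 1.06). For H3K27me3 that near-equality hid a strong split among the clusters. Cluster 7 alone held 66.8% of the H3K27me3 peaks, and without it the ratio was 0.383. Without cluster 3, which held 9 such peaks in the longest span, it was 1.34.

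**Figure D1:**
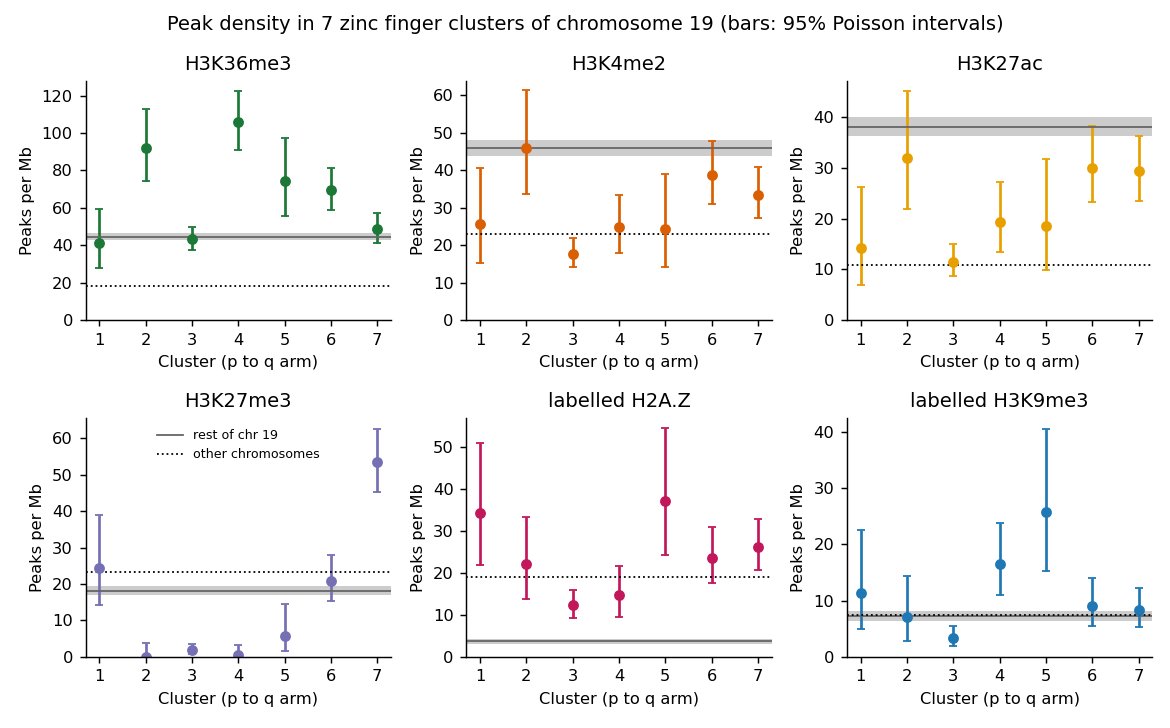
Peaks per Mb of each list (y axis) in the 7 clusters (x axis), with exact Poisson intervals as bars. The grey line and band give the rest of chromosome 19 and its interval, and the dotted line the other chromosomes. All 7 clusters lie above the rest for the list labelled H2A.Z and all 7 below it for H3K27ac, while H3K27me3 runs from 0 in cluster 2 to 53.4 in cluster 7.

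The clusters differed among themselves in which list dominated. Clusters 2 and 4 were the richest in H3K36me3, with 92 (74.2 to 112.8) and 105.9 (91.0 to 122.5) peaks per Mb. H3K27me3 was nearly missing from both, with 0 peaks in cluster 2 (upper end of the exact Poisson interval 3.69 per Mb) and 1 in cluster 4. This was not particular to them. Cluster 3, with H3K36me3 at 43.3 per Mb (37.6 to 49.6), was also low in H3K27me3 (1.88 per Mb, 0.857 to 3.56). That interval overlaps the one of cluster 4 (0.588 per Mb, 0.0149 to 3.28). Cluster 6 had the highest H3K36me3 coverage of the 7, at 21.9% of its bases, with 32 peaks wider than 5 kb and fewer peaks per Mb (69.5, 59 to 81.5) than cluster 4.

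Cluster 3, on the short arm next to the centromere, was the poorest in most lists. It had the lowest density of the 7 clusters for H3K4me2 (17.7 per Mb, 14.1 to 21.9), H3K27ac (11.5, 8.63 to 14.9), the list labelled H2A.Z (12.3, 9.36 to 15.9) and the list labelled H3K9me3 (3.33, 1.91 to 5.41). Its interval for the list labelled H2A.Z overlapped that of cluster 4 (14.7 per Mb, 9.52 to 21.7). H3K36me3 covered 6.77% of it, against 11.1 to 21.9% of the other clusters. In 3 of its 48 windows of 0.1 Mb no list had a peak, and every window of the other 6 clusters held at least 1 peak.

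Cluster 5, the joint shortest span with cluster 1, had the highest density of the lists labelled H2A.Z and H3K9me3. The list labelled H2A.Z reached 37.1 per Mb (24.3 to 54.4) there, which overlaps the interval of cluster 1 (34.3, 22 to 51). The list labelled H3K9me3 reached 25.7 per Mb (15.2 to 40.6) in cluster 5 and 16.5 (10.9 to 23.8) in cluster 4, against 3.33 to 11.4 in the others. Both lists were present in all 7 windows of 0.1 Mb of cluster 5, but in the 7 clusters together 0 of the 121 peaks labelled H3K9me3 touched a peak labelled H2A.Z (up to 2.48%). In the rest of chromosome 19 it was 4 of 303 (1.32%, 0.515 to 3.34), and on the other chromosomes 1496 of 20027 (7.47%, 7.11 to 7.84).

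Cluster 7 was made of 2 stretches, a division chosen after its peaks were seen. From 56.2 to 58 Mb, H3K27me3 had 153 peaks, or 85 per Mb (72.1 to 99.6), and covered 6.34% of the bases. From 58 to 59.1 Mb it had 2 peaks. H3K36me3 covered 7.70% of the first stretch and 21% of the second, and H3K27ac had 11.7 (7.22 to 17.8) and 58.2 (44.8 to 74.3) peaks per Mb. The list labelled H2A.Z was at 22.8 (16.3 to 30.9) and 31.8 (22.2 to 44.3) per Mb, intervals that overlap, so it was present on both sides of that border.

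Median peak widths differed little between the clusters and the rest, with H3K27ac as the exception. The median H3K27ac peak was 1021 bp wide in the clusters (quartiles 635 and 1599.5) and 694 bp in the rest (upper quartile 1413). Peaks wider than the width most common in these lists, which is the lower quartile of the rest, made up 78.6% (Wilson interval 73.5 to 82.9) and 60.6% (58.2 to 63.0). Very wide peaks were no more frequent in the clusters, since those over 2 kb made up 13.6% (10.2 to 18) and 16.1% (14.4 to 18). The shift was therefore one of fewer narrow peaks. It was seen both on H3K4me2, where the medians were 1231 and 1127 bp, and off it, where they were 658 bp and the commonest width.

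**Figure D2:**
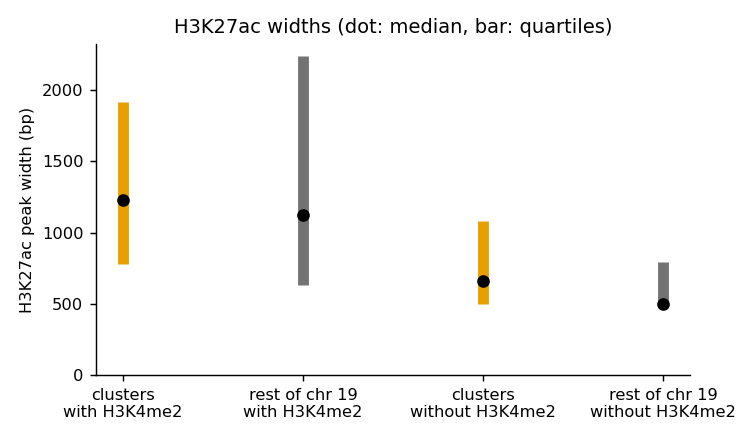
Width of H3K27ac peaks in bp (y axis) in the clusters (orange) and the rest of chromosome 19 (grey), split by whether the peak touched H3K4me2 (x axis). Dots are medians and bars run between the quartiles; the lower quartile of the clusters is above that of the rest for peaks with H3K4me2 and equal to it for peaks without.

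The median H3K36me3 peak was 900 bp wide in the clusters and 971 bp in the rest, and 11.1% (9.18 to 13.4) and 12.8% (11.4 to 14.4) were over 5 kb. For H3K4me2 the medians were 652.5 and 628 bp. The medians of H3K27me3 and of the lists labelled H2A.Z and H3K9me3 equalled the commonest width on both sides, so they could not show a shift among wider peaks. Peaks wider than it made up 45.3% of H3K27me3 in the clusters and 37.4% in the rest. The shares were 41.5 and 33.3% for the list labelled H2A.Z and 38.8 and 29.7% for the list labelled H3K9me3. For H3K4me2 they were 57.7 and 52.0%. All of these were higher in the clusters, with intervals that overlap. The 7 peaks labelled H2A.Z over 2 kb on chromosome 19 all lay in the clusters.

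The next comparison asked which lists share bases there. The list labelled H2A.Z met H3K36me3 in the clusters far more often than anywhere else examined. Over all chromosomes, 0.519% of its peaks shared at least 1 bp with H3K36me3. In the clusters 75 of 284 did, or 26.4% (Wilson interval 21.6 to 31.8), against 13 of 156 in the rest of chromosome 19, or 8.33% (4.93 to 13.7), and 183 of 51748 on the other chromosomes, or 0.354% (0.306 to 0.409). Counted the other way, 0.445% of all H3K36me3 peaks touched the list labelled H2A.Z, and 60 of 855 in the clusters did, or 7.02% (5.49 to 8.93), against 11 of 1871 in the rest, or 0.588% (0.329 to 1.05).

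H3K36me3 also covers more of the clusters, so bases were compared with that coverage. Of the bases under peaks labelled H2A.Z in the clusters, 26.8% lay under H3K36me3, 2.06 times the 13.0% of all cluster bases that H3K36me3 covered. In the rest of chromosome 19 it was 6.61% of bases, 0.633 times the coverage, and on the other chromosomes 0.318% of bases, 0.0916 times the coverage of 3.47%. The relation between these lists was thus above coverage in the clusters and below it outside them.

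This overlap was uneven among the clusters. In cluster 2, 17 of 22 peaks labelled H2A.Z touched H3K36me3 (77.3%, 56.6 to 89.9), and in cluster 4 it was 13 of 25 (52%, 33.5 to 70.0). Cluster 6 followed with 18 of 52 (34.6%, 23.2 to 48.2) and cluster 7 with 15 of 76 (19.7%, 12.3 to 30.0). In clusters 1, 3 and 5 the shares were 12.5, 8.47 and 15.4%, and the bases shared were 0.952, 1.25 and 0.955 times the local H3K36me3 coverage, against 5.13 times in cluster 2 and 2.87 times in cluster 4. Without clusters 2 and 4 the share was still 19% (14.5 to 24.5).

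**Figure D3:**
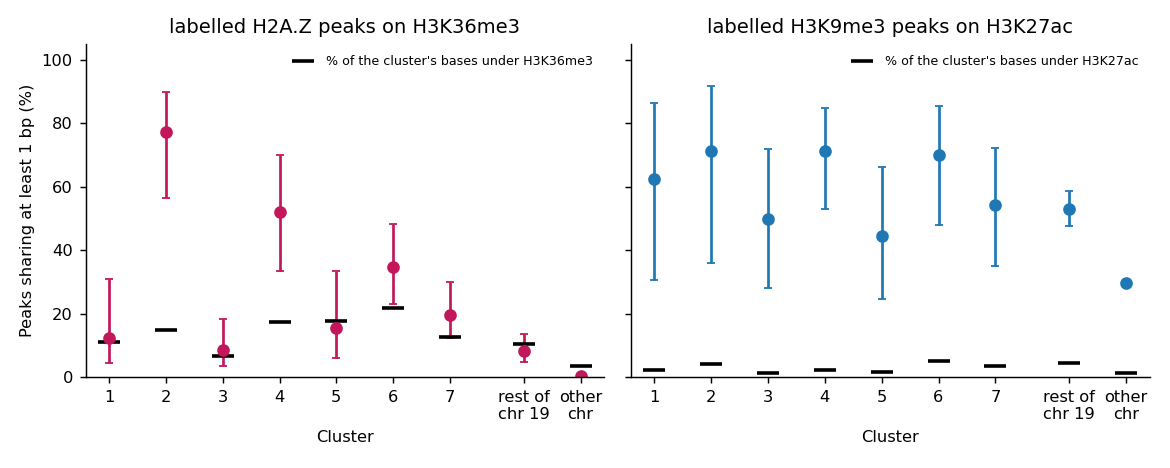
Share of peaks labelled H2A.Z that touched H3K36me3 (left) and of peaks labelled H3K9me3 that touched H3K27ac (right), in percent (y axis), for each cluster, the rest of chromosome 19 and the other chromosomes (x axis), with Wilson intervals as bars. Black dashes give the percent of bases under H3K36me3 or H3K27ac in the same span; cluster 2 stands at 77.3% on the left, with H3K36me3 over 14.8% of its bases.

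The places of the longest shared stretches follow. In cluster 2, adjoining peaks labelled H2A.Z shared 3718 bp (chromosome 19, 12186210 to 12189927) with the widest H3K36me3 peak of that cluster (12184066 to 12193178, 9.11 kb). In cluster 7 the longest stretch was 2205 bp (58774007 to 58776211), inside the widest H3K36me3 peak of all 7 clusters, which spans 36.3 kb (58741450 to 58777766) and also touched H3K4me2. In cluster 6 it was 2100 bp (52568148 to 52570247). In both cluster 2 and cluster 7 the longest shared stretch thus lay within the widest H3K36me3 peak of the cluster. The widest H3K36me3 peak of cluster 4 also touched the list labelled H2A.Z, and those of clusters 1, 3, 5 and 6 did not. The one of cluster 6 (52702991 to 52735357, 32.4 kb) touched H3K4me2 and H3K27ac.

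The longest stretches were shorter in the other clusters. They measured 1456 bp in cluster 3 (20729516 to 20730971), 1025 bp in cluster 1 (9641104 to 9642128), 976 bp in cluster 4 (37381752 to 37382727) and 925 bp in cluster 5 (44982500 to 44983424). In clusters 3 and 4 the stretch was an entire peak labelled H2A.Z, the widest of its cluster. By contrast, the widest peak labelled H2A.Z of all, 2560 bp in cluster 7 (58674212 to 58676771), touched no other list, and neither did the widest of clusters 1, 5 and 6.

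Windows of 0.1 Mb showed how often the lists lie in the same stretch, touching or not. A peak labelled H2A.Z was present in 91 of 140 cluster windows (65%) and in 87 of 418 windows of the rest (20.8%). Both it and H3K36me3 were present in 69 cluster windows (49.3%) and 22 others (5.26%). H3K36me3 itself was present in 78.6% of cluster windows and 64.6% of the others. With both lists this common in the clusters, many windows would hold both without any relation, so the 49.3% does not show one. The 5 cluster windows with the most shared bases began at positions 58700001, 12100001, 52300001, 37200001 and 12000001, with 5947, 5010, 3843, 2782 and 2688 bp. The window with the most peaks labelled H2A.Z, 12 of them from 58600001 to 58700000, shared 0 bp with H3K36me3 and adjoins the one with the most shared bases. The median distance from a peak labelled H2A.Z to H3K36me3 was 9.36 kb in the clusters and 166.3 kb in the rest, and 51.1% (45.3 to 56.8) and 12.8% (8.45 to 19) were within 10 kb.

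H3K36me3 peaks were joined within 1 kb into domains to ask which of them carry the list labelled H2A.Z. In the clusters 59 of 684 domains did (8.63%, 6.75 to 11), against 11 of 1432 in the rest (0.768%, 0.429 to 1.37). Longer domains carried it more often in the clusters: 5 of 298 up to 1 kb (1.68%, 0.719 to 3.87), 22 of 272 from 1 to 5 kb (8.09%, 5.402 to 11.9) and 30 of 111 from 5 to 20 kb (27%, 19.6 to 36). A longer domain also has more bases to meet another list. In the same classes the rest of the chromosome gave 0.167, 1.08 and 1.6% (0.624 to 4.04 for the longest of these), so the clusters were above the rest beyond counting error from 1 to 5 kb (0.494 to 2.33 in the rest) and from 5 to 20 kb, while up to 1 kb the intervals overlapped (0.0294 to 0.938 in the rest). Over 20 kb there were 3 domains in the clusters, 2 of them with the list, and 24 in the rest with none.

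**Figure D4:**
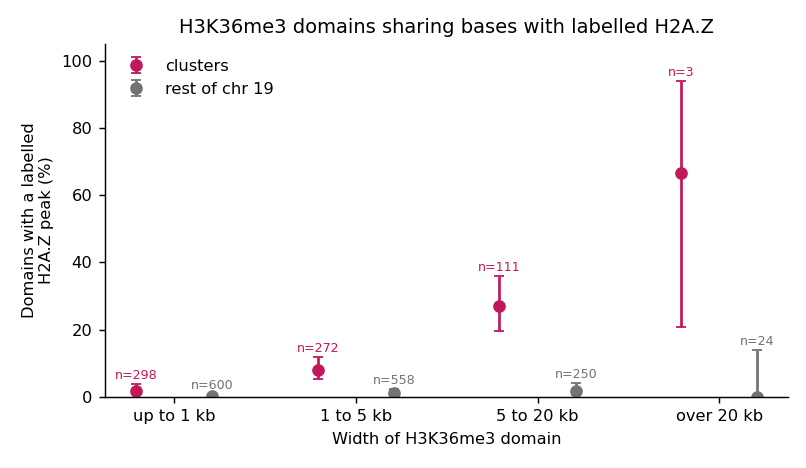
Share of H3K36me3 domains with a peak labelled H2A.Z, in percent (y axis), by domain width (x axis), in the clusters (magenta) and the rest of chromosome 19 (grey), with Wilson intervals as bars and the number of domains above each. In the class from 5 to 20 kb the clusters stand at 27% and the rest at 1.6%.

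The place of the list labelled H2A.Z within these domains was measured from the edge nearer to an H3K4me2 peak, where one lay within 5 kb. Gene starts were not used, and H3K4me2 lies at enhancers as well as promoters, so this edge is not a gene start. Of 216 such domains in the clusters, 16 carried 24 peaks labelled H2A.Z. The midpoints of 19 lay beyond the middle of the domain, on the side away from H3K4me2 (79.2%, 59.5 to 90.8), with a median at 0.747 of the domain length. They came from clusters 6 (7 of 8), 7 (7 of 9), 2 (4 of 6) and 1 (1 of 1). Peaks of 1 domain share their source, and counted by domain the mean place lay beyond the middle in 13 of 16. With H3K4me2 sought within 10 kb of an edge instead, 22 of 34 peaks lay there (64.7%, 47.9 to 78.5), and within 2 kb 9 of 13 (69.2%, 42.4 to 87.3), intervals that both include an even split. In the rest of the chromosome it was 4 of 4 peaks.

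Averaged over the 102 such domains of 2 kb or more in the clusters, the list labelled H2A.Z covered 0 to 0.418% of each of the first 3 of 10 equal bins from the H3K4me2 side and 1.87 to 4.04% of each of the remaining 7. H3K27ac covered 24.5% of the 2.5 kb outside the near edge, 3.97% of bin 1 and 0% of bins 7 to 9. The list labelled H3K9me3 covered 5.56% from 5 to 2.5 kb outside the near edge, 2.28% of the next 2.5 kb and none of the domain. The nearness of H3K4me2 to that edge was fixed by the choice of edge and is no result, and since 62.2% of H3K27ac peaks and 52.9% of peaks labelled H3K9me3 touched H3K4me2 in the clusters, the choice also acts on theirs. Since 0 peaks labelled H2A.Z touched H3K4me2 in the clusters, bases under H3K4me2 could hold none of them, and H3K4me2 covered 2.58% of bin 1, 1.11% of bin 2 and 0.517% of bin 3.

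**Figure D5:**
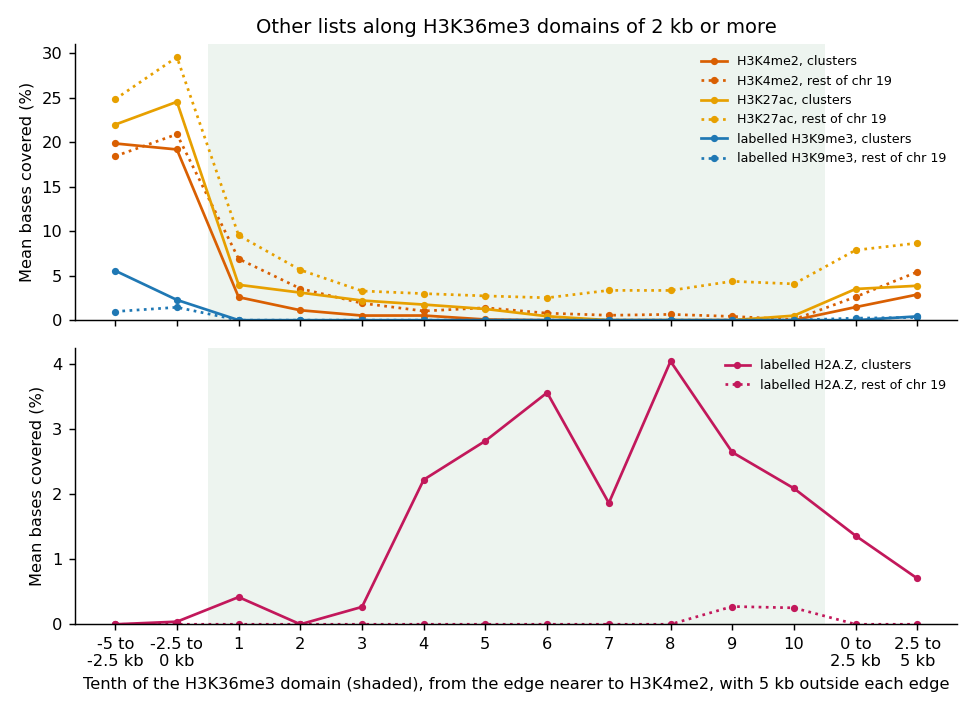
Mean percent of bases covered (y axis) along H3K36me3 domains of 2 kb or more, in 10 equal bins of the domain (shaded) and in 2.5 kb steps outside (x axis), starting from the edge nearer to H3K4me2. Solid lines are the 102 domains of the clusters and dotted lines the 334 of the rest of chromosome 19; the list labelled H2A.Z (lower panel, own scale) peaks at 4.04% in bin 8 in the clusters.

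The list labelled H3K9me3 occupied other places from the list labelled H2A.Z. Over all chromosomes 30.4% of its peaks touched H3K27ac and 35.3% touched H3K4me2. In the clusters 73 of 121 touched H3K27ac (60.3%, 51.4 to 68.6) and 64 of 121 touched H3K4me2 (52.9%, 44.0 to 61.6). The rest of chromosome 19 gave 53.1% (47.5 to 58.7) and 50.5% (44.9 to 56.1), so on this side the clusters overlapped with the rest within counting error, and both shares exceeded those of the other chromosomes (29.9 and 35.0%). Set against coverage the order was another: the bases shared with H3K27ac were 17.9 times its coverage in the clusters, 9.84 times in the rest and 23.1 times on the other chromosomes. With H3K4me2 they were 16.8, 10.9 and 16.2 times. None of the 121 touched H3K36me3 (up to 2.48%). It was likewise 0 of 303 in the rest of chromosome 19, and 32 of 20027 (0.160%) on the other chromosomes. This lack of overlap was thus not particular to the clusters. The widest peak labelled H3K9me3 in the clusters, 1993 bp in cluster 4 (37996625 to 37998617), touched both H3K4me2 and H3K27ac.

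Seen from the active marks, the clusters did differ from the rest. Of all H3K27ac peaks 19.3% touched the list labelled H3K9me3, and in the clusters 69 of 294 did (23.5%, 19 to 28.6), near that background, against 157 of 1599 in the rest of chromosome 19 (9.82%, 8.46 to 11.4). Of all H3K4me2 peaks 11.2% did, and in the clusters 64 of 390 (16.4%, 13.1 to 20.4), against 7.95% (6.83 to 9.25) in the rest. Clusters 4 and 5 carried much of it, with 19 of 33 and 8 of 13 H3K27ac peaks (57.6%, 40.8 to 72.8, and 61.5%, 35.5 to 82.3). Cluster 1 had 5 of 10 (50%, 23.7 to 76.3), clusters 2, 3, 6 and 7 had 14.1 to 18.2%, and without clusters 4 and 5 the share was 16.9% (12.8 to 22.1) for H3K27ac and 12.1% (9.001 to 16) for H3K4me2.

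The active marks touched each other more often in the clusters, and H3K27ac touched H3K36me3 less often. Of all H3K27ac peaks 48.8% touched H3K4me2. In the clusters 183 of 294 did (62.2%, 56.6 to 67.6), against 46.6% (44.2 to 49) in the rest of the chromosome, and the 7 clusters ranged from 56.1 to 71.9%. Of all H3K4me2 peaks 25.7% touched H3K27ac, in the clusters 215 of 390 (55.1%, 50.2 to 59.99) and in the rest 43.1% (40.9 to 45.4). With H3K36me3 the order was the reverse for H3K27ac. Over all chromosomes 12.9% of H3K27ac peaks touched it, in the clusters 22 of 294 (7.48%, 4.99 to 11.1) and in the rest 285 of 1599 (17.8%, 16.0 to 19.8). For H3K4me2 the shares were 4.09% of all peaks, 25 of 390 in the clusters (6.41%, 4.38 to 9.29) and 6.55% (5.53 to 7.74) in the rest, intervals that overlap. Counted from the active marks, more peaks had H3K36me3 within 10 kb in the clusters: 80.6% (75.7 to 84.7) of H3K27ac peaks against 71.0% (68.7 to 73.2) in the rest, and 73.1% (68.5 to 77.2) of H3K4me2 peaks against 57.8% (55.6 to 59.99). Counted from H3K36me3 the order was the reverse. Of its peaks, 49.4% (46.0 to 52.7) had H3K27ac within 10 kb in the clusters and 70.6% (68.5 to 72.6) in the rest. For H3K4me2 it was 49.7% (46.4 to 53.1) and 67.1% (65.0 to 69.2). These shares were not set against the density of each list.

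Few peaks broke these patterns. In the clusters 3 peaks labelled H2A.Z touched H3K27ac, each of the commonest width, in cluster 1 (9433131 to 9433631) and cluster 6 (52313565 to 52314065 and 52451343 to 52451843). They made up 1.06% (0.360 to 3.06) of the list there, against 0 of 156 in the rest of chromosome 19 and 0.0406% on the other chromosomes. H3K4me2 and H3K27me3 met at 2 H3K4me2 peaks, both in the H3K27me3-rich stretch of cluster 7 (56467083 to 56467583 and 57614608 to 57615314). That was 0.513% (0.141 to 1.85) of H3K4me2 peaks in the clusters, against 0.0520% in the rest and 1.23% on the other chromosomes. H3K27me3 touched neither H3K36me3, H3K27ac nor the list labelled H3K9me3 in the clusters, where 0 of 232 peaks allows up to 1.29%. It was 0 of 760 for each in the rest of chromosome 19, and 0.0063, 0.0173 and 1.14% on the other chromosomes. This lack of overlap was thus not particular to the clusters.

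H3K27me3 peaks touched the list labelled H2A.Z in a smaller share on chromosome 19 than on the other chromosomes (11.9%). Over all chromosomes 11.8% of H3K27me3 peaks touched that list. In the clusters 9 of 232 did (3.88%, 2.05 to 7.21), and in the rest of chromosome 19 it was 14 of 760 (1.84%, 1.10 to 3.07). That list covers far less of the rest, and set against its coverage the shared bases were 1.64 times in the clusters, 4.79 times in the rest and 5.61 times on the other chromosomes. Of the 9, 6 were in cluster 7, where both lists were dense. The median distance from H3K27me3 to the list labelled H2A.Z was 11 kb in the clusters and 44.0 kb in the rest.

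Joining all overlapping peaks of the 6 lists gave 1720 regions in the clusters and 5097 in the rest. H3K36me3 alone made up 43.8% (41.5 to 46.1) of the cluster regions and 29.8% (28.5 to 31.1) of the others, and the list labelled H2A.Z alone 11.5% (10.0 to 13.0) and 2.43% (2.04 to 2.89). Regions of H3K36me3 with the list labelled H2A.Z and no other list numbered 56 in the clusters and 10 in the rest. H3K4me2 alone made up 8.14% (6.94 to 9.53) in the clusters and 18.9% (17.9 to 20.03) in the rest, and H3K27ac alone 4.36% (3.49 to 5.43) and 11.7% (10.8 to 12.6). Among regions with both H3K4me2 and H3K27ac, the list labelled H3K9me3 was present in 56 of 187 in the clusters (29.9%, 23.8 to 36.9) and 113 of 735 in the rest (15.4%, 12.9 to 18.2).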

How the data were processed

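The deposited files hold 4 columns (chromosome, start, end, peak name), so positions in bp are the only measurement, and they carry no height or p-value. The authors' lists were used as deposited. The tools named, without a role, in the submitters' processing notes are Bowtie2 2.1.0 and HOMER 4.2; positions follow hg19 (GRCh37). How peaks were called, whether the input entered, how deeply each library was read and how reads matching several near-identical genes were treated is not given in the sources used here. Peak numbers of different lists are therefore not amounts of a mark, and signal under the calling threshold does not appear. The input, the seventh sample, was not analysed here.

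Positions are 1-based. The rest of chromosome 19 was 42.0 Mb, from its start to the last peak without the clusters and the longest peak-free span (24596120 to 27735460). On the other chromosomes, spans of 1 Mb or more without any peak were taken out. Overlap meant at least 1 shared bp. Python 3.11.15, numpy 2.4.6 and scipy 1.17.1 were used, and the functions were tested on simulated data. Named regions were the widest peak of each list, the widest H3K36me3 and labelled H2A.Z peak and their longest overlap in each cluster, and the 5 windows with most shared bases; the few peaks named as exceptions were chosen after their values were seen. The members and comparisons were chosen with earlier results of these data known. Gene and sequence analyses were not made, since the genome and annotation of hg19 were not used here.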

Additional observations from a re-analysis of the deposited data

How the results depend on the processing

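Densities, covered shares (clusters over rest), median widths, shares on H3K36me3 (clusters minus rest) and the place in domains, 25 values in all, were recomputed under the alternatives that apply to each. Of 337 recomputed values, 298 stayed within the counting interval of the reported one, 35 left it and 4 changed direction. For covered shares that interval was scaled from peak counts. The 298 include values that could hardly change. Median width differences of H3K27me3 and of the lists labelled H2A.Z and H3K9me3 were 0 under every alternative. The shares of H3K27me3 and of the list labelled H3K9me3 on H3K36me3 were 0 in the clusters and in the rest. Clusters 3, 4 and 5 held 0 of the peaks placed in domains, so leaving them out could not move that share. A change of direction was counted only where the reported interval excluded equality. Others crossed equality without being counted so, such as the H3K27me3 density ratio without cluster 3 (1.34, 1.15 to 1.56). The H3K36me3 width difference, reported as -71 bp, did so too against the other chromosomes. All of the 4 counted came from taking the other chromosomes in place of the rest of chromosome 19: density ratios of 1.22 for H3K4me2 and 1.93 for H3K27ac, and coverage ratios of 1.22 and 2.28. That comparison also gave density ratios of 3.33 for H3K36me3, 0.709 for H3K27me3 and 1.07 for the list labelled H2A.Z, coverage ratios of 3.75, 0.7002 and 1.14, a median width difference of 194 bp for H3K36me3, and differences on H3K36me3 of -5.21 points for H3K27ac and 26.1 points for the list labelled H2A.Z. Among peaks wider than the commonest width, density ratios were 0.714 for H3K27ac, 1.11 for H3K27me3, 6.80 for the list labelled H2A.Z and 1.57 for the list labelled H3K9me3. Coverage ratios were 1.17, 7.75 and 1.76 for the last 3, and the difference of the list labelled H2A.Z on H3K36me3 was 27.3 points. The cause was not tested.

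Leaving out each cluster in turn gave these ranges. Density ratios ran from 1.23 to 1.58 for H3K36me3, 0.564 to 0.723 for H3K4me2, 0.494 to 0.682 for H3K27ac, 0.383 to 1.34 for H3K27me3, 5.04 to 6.58 for the list labelled H2A.Z and 1.05 to 1.58 for the list labelled H3K9me3. Coverage ratios ran, in the same order, from 1.09 to 1.56, 0.585 to 0.777, 0.519 to 0.776, 0.419 to 1.48, 5.52 to 7.64 and 1.11 to 1.80. Differences on H3K36me3 ran from -13.5 to -9.39 points for H3K27ac, -2.79 to 0.719 for H3K4me2 and 13.8 to 22.8 for the list labelled H2A.Z. The share beyond the middle of domains ran from 75 to 83.3% on leaving out a cluster, and from 64.7 to 86.4% over 6 other settings chosen after seeing the data. No value recomputed for them left its reported interval when edges moved by 0.1 Mb, peaks were assigned by any overlap or merged within 1 kb, the widest 1% were left out, or an overlap of 50% was asked. No paired analysis was possible because each mark has 1 library.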

Other observations

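Most of the 156 peaks labelled H2A.Z outside the clusters on chromosome 19 lay over 1 Mb from any cluster. Within 0.1 Mb lay 14 of them (8.97%, Wilson interval 5.42 to 14.5), and within 1 Mb 34 (21.8%, 16.0 to 28.9). The 1 Mb stretches outside with the most peaks were 28 to 29 Mb (16 peaks), 27 to 28 Mb (12) and 31 to 32 Mb (11), all on the long arm near the centromere. Most of 27 to 28 Mb lies in the peak-free span, which ends at 27735460, so its 12 peaks lie in a shorter stretch. Another 10 lay between the end of cluster 3 at 24.5 Mb and the peak-free span from 24596120. That stretch is also shorter than 1 Mb and right beside the cluster. The median distance of the 156 peaks to H3K27me3 was 23.6 kb, against 145.5 kb for the peaks in the clusters. Of the 156, 9.62% (5.91 to 15.3) touched H3K27me3, against 3.17% (1.68 to 5.91) in the clusters. On the other chromosomes it was 14.9%, a value inside the interval of the 156 and above that of the clusters.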
